A study of Homo sapiens with 6 samples.

Results

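Amino acid carriers of the cell surface decide which amino acids a cell can take up and exchange, and 10 of their genes were followed here: SLC1A4, SLC1A5, SLC3A2, SLC7A1, SLC7A5, SLC7A6, SLC7A11, SLC38A1, SLC38A2 and SLC43A1. They were chosen by name, as carriers of neutral, cationic or cystine substrates, from the 23686 genes in the count tables. All 10 passed the filter on low counts. The libraries came from HEK293, a widely used human embryonic kidney line, and all sequenced cells carried green fluorescent protein (GFP) and were collected by fluorescence-activated cell sorting. In the co-culture group (3 samples) the GFP-positive cells had been grown for 10 h beside DAAO-carrying HEK293 partners, which make reactive oxygen species (ROS). The control group (3 samples), which the titles call Wt, held sorted GFP-positive cells too. The labels print 1 treatment text, with co-culture and D-alanine at 25 µM, for both groups, and the 10 h likewise. Whether the controls received D-alanine or partner cells is therefore not given in the sources used here. Nothing says whether the samples of a group came from separate cultures, so p-values measure the spread between these samples, which may be technical. Neither do the labels say whether each line is a single clone.

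The enzyme that DAAO usually stands for, D-amino acid oxidase, forms hydrogen peroxide while it oxidises D-amino acids such as D-alanine. Several of the carriers work as pairs of proteins: SLC3A2 is the heavy chain that brings light chains such as SLC7A5, SLC7A6 and SLC7A11 to the cell surface. SLC7A5 exchanges large neutral amino acids such as leucine, SLC7A6 exchanges cationic for neutral amino acids, and SLC7A11 imports cystine in exchange for glutamate, which feeds glutathione synthesis. SLC1A4, SLC1A5, SLC38A1 and SLC38A2 are sodium-coupled carriers of small neutral amino acids, alanine among their substrates. SLC7A1 carries arginine and lysine, and SLC43A1 lets large neutral amino acids pass without sodium. When amino acids are scarce, cells raise many of these genes through the transcription factor ATF4.

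The libraries held between 19091085 and 36250314 reads assigned to genes on the expected strand. VIM, KRT8, KRT18, PAX2 and LHX1, fixed as markers of HEK293 cells, were detected in all 6 libraries. The human oxidase gene itself, DAO, had 0 reads in every library. That allows up to 3 reads, or 0.0828 to 0.157 CPM (a library's counts scaled to the same total, here by raw totals). A transgene of another sequence would not be counted there, and the limit covers counting error only. PTPRC, CD3E, LYZ, ALB and COL1A2, markers of other cell types, had at most 5 reads in any library, whereas the fibroblast marker LUM stood at 5.90 to 7.65 CPM in co-culture and 9.35 to 11.6 CPM in the controls. Co-culture libraries 2 and 3 had few reads on the unexpected strand (medians of 0.127% and 0.216% of a gene's reads, over genes with at least 1000 reads), and the other 4 libraries had 1.59% to 1.79%. This strand class held co-culture samples only on its low side, so values from a fit with the class as a term, in which co-culture library 1 is set against the 3 controls, are given beside the carriers whose groups did not overlap and beside the called genes of the related lists.

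The promoter windows of the carriers are shown first because ATF4 is the regulator they are best known to share. RefSeq windows (GRCh38.p14, 250 bases before a gene's start and 50 after it) were found for 9 of the 10 genes, 16 windows in all, and SLC7A11 had none. The letters TGATGNAA, a short form of the ATF4 response element, were searched on both strands. They occurred in windows of 5 of the 9 genes, beside 4.46% of all 27305 genes, and in 5 of the 16 windows, beside 3.62% of all 35116 windows. The matches, in capitals within their flanking bases, read 5′ to 3′ on the gene's strand:
SLC1A4 (chr2:64989382-64989409, plus strand): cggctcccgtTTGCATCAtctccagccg
SLC1A5 (chr19:46784894-46784921, minus strand): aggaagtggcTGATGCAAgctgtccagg
SLC3A2 (chr11:62881726-62881748, plus strand): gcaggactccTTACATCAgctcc
SLC7A1 (chr13:29595664-29595691, minus strand): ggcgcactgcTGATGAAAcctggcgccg
SLC38A1 (chr12:46266503-46266530, minus strand): cagacccgaaTGATGAAAagggatcagc
A match is a description of letters and not a binding site. Many of these carriers are known to be raised through ATF4, so their share is not independent of how the genes were chosen. SLC1A5, SLC3A2, SLC1A4 and SLC38A1 have 2 or 3 windows each, and the match was in 1 of them. None of the 5 genes passed the test between the groups, with edgeR adjusted p-values from 0.0533 to 0.930, and they were not compared as a group.

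Per kilobase of exon, the carriers spanned a wide range of levels, and SLC38A2 stood highest. Over the 6 libraries SLC38A2 had a mean of 99.5 CPM per kilobase, SLC1A5 67.2, SLC3A2 36.1, SLC38A1 32.6 and SLC7A6 20.5. SLC7A1 followed at 16.2 CPM per kilobase, SLC7A5 at 11.4, SLC1A4 at 8.94, SLC7A11 at 2.74 and SLC43A1 at 1.63. The ranges over the 6 libraries overlapped for 2 pairs of neighbours in this order, SLC3A2 with SLC38A1 and SLC7A5 with SLC1A4, and the other neighbours did not overlap. Exon lengths came from GENCODE 29 and not from the annotation behind the counts, and the order was the same with the longest transcript of each gene. The alanine carriers SLC38A2 and SLC1A5 were thus the most abundant transcripts of the 10 per unit length, and the low SLC43A1 rested on 61 to 191 reads a library.

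In co-culture, SLC7A5 was the 1 carrier of the 10 with a difference past the threshold, and it was higher. A gene was called at an adjusted p under 0.05 in edgeR's quasi-likelihood test (Benjamini-Hochberg adjustment over 14582 tested genes). That rule called 4.83% of all tested genes, 2.66% as higher and 2.17% as lower, so a count of 1 in 10 does not set the carriers apart. Of the 10, 5 showed no overlap between the groups, 4 higher and 1 lower, where 29.3% of all tested genes showed none, 14.3% higher and 15% lower. An unadjusted p under 0.05 was reached by the same 5 carriers and by 23.2% of all tested genes. The median log2 fold change of the 10 was 0.15, beside -0.0022 over all tested genes, and 6 of the 10 were above 0, as were 49.6% of all tested genes. All the differences were small: the 95% interval of 9 carriers lay within a 1.5-fold change in either direction, as it did for 75.1% of tested genes, and the interval of SLC43A1 reached a fold of 1.53. In bulk RNA, fewer cells with a transcript and less of it per cell cannot be told apart.

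**Figure D1:**
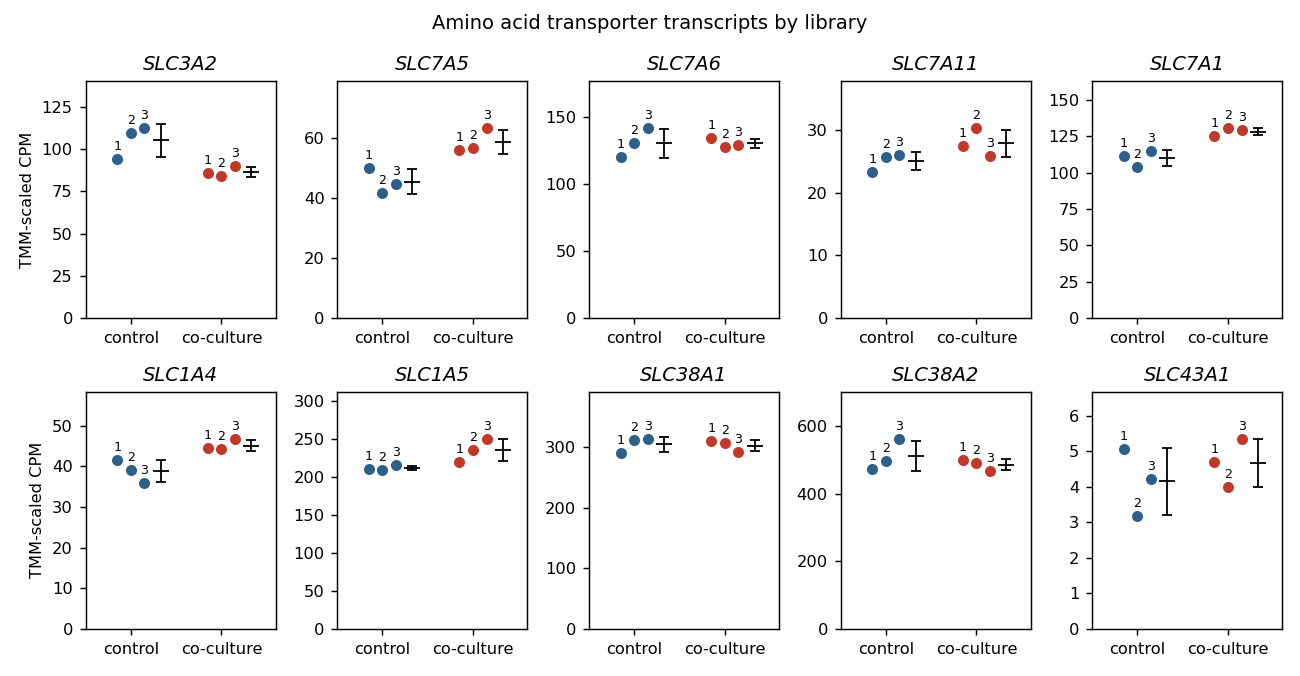
Level of each carrier in TMM-scaled CPM (vertical axis, from 0) in the 3 control and 3 co-culture libraries; points are libraries with their replicate numbers, and the bar beside them is the mean ± SD. SLC7A5 runs from 41.9 to 50.04 CPM in the controls and from 56.2 to 63.3 CPM in co-culture, while SLC3A2 is lower in every co-culture library than in any control.

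Of the light chains, SLC7A5 stood at 56.2, 56.9 and 63.3 CPM in co-culture libraries 1, 2 and 3, with library sizes scaled by TMM. Its controls 1, 2 and 3 stood at 50.04, 41.9 and 44.8 CPM. Every co-culture library was above every control, and control 1 was the control nearest to them. The means were 58.8 ± 3.90 and 45.6 ± 4.13 CPM (SD, n = 3 each). On the log2 scale the difference was 0.37 (SE 0.08, 95% interval 0.19 to 0.55, edgeR adjusted p 0.0310). That call did not hold when single libraries were left out: the log2 fold change ran from 0.31 to 0.44 with adjusted p-values from 0.000285 (without control 1) to 0.151 (without control 2), and it was past the threshold only without control 1 or control 3. With the strand class as a term it was 0.30 (edgeR adjusted p 0.356).

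SLC3A2, the heavy chain these light chains need, differed in the opposite direction. It stood at 85.7, 83.9 and 89.8 CPM in co-culture libraries 1, 2 and 3 and at 93.9, 109.5 and 112.1 CPM in controls 1, 2 and 3. The groups did not overlap, and control 1 was again the control nearest to the co-culture libraries. The log2 fold change was -0.28 (SE 0.07, 95% interval -0.44 to -0.12), and its edgeR adjusted p of 0.0533 missed the threshold by little. It passed in 5 of 15 other settings, among them DESeq2 (adjusted p 0.0193), total-count scaling (0.0246) and the fit without control 1 (-0.36, edgeR adjusted p 0.000155); with the strand class as a term it was -0.30 (edgeR adjusted p 0.352), the highest adjusted p of the 15.

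The other light chains did not pass. SLC7A11 had 27.5, 30.2 and 25.9 CPM in co-culture libraries 1, 2 and 3 and 23.4, 25.7 and 25.9 CPM in the controls. Co-culture library 3 fell between controls 2 and 3, so the groups overlapped. Its log2 fold change of 0.15 had a 95% interval from -0.03 to 0.34 (edgeR adjusted p 0.308). SLC7A6 had 133.9, 127.7 and 129.1 CPM in co-culture and 119.7, 130.3 and 141.3 CPM in controls 1, 2 and 3, so the controls enclosed the co-culture libraries. Its 95% interval, -0.15 to 0.15, allowed a fold of at most 1.11 in either direction. Reads on the unexpected strand made up 15.3% of the reads over SLC7A6, whose neighbour SLC7A6OS lies on the opposite strand, and between 0.238% and 1.54% over the other 9 carriers.

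**Figure D2:**
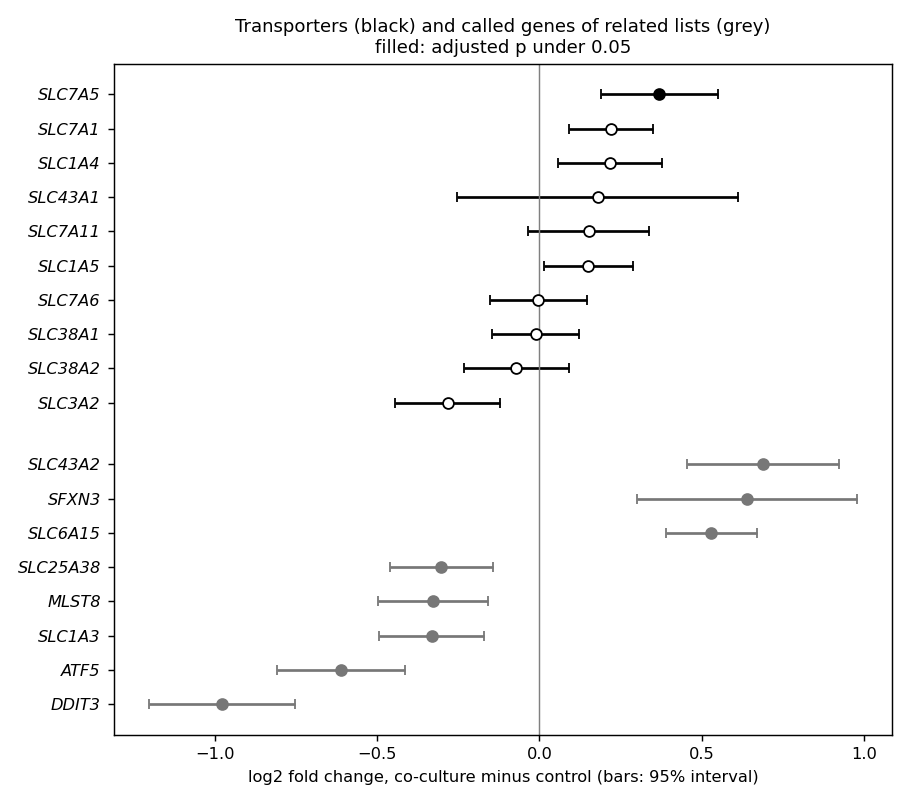
Log2 fold change, co-culture minus control (horizontal axis), of the 10 carriers (black) and of the 8 genes past the threshold in the related lists (grey), with 95% intervals from edgeR; filled points had an adjusted p under 0.05. Among the carriers SLC7A5 alone is filled, at 0.37, and SLC3A2 at -0.28 lies on the other side of 0.

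Because SLC7A5 and SLC3A2 form 1 transporter, their ratio of reads within each library was compared. The ratio does not depend on library scaling; its level depends on the lengths of both genes, and its difference between the groups does not. SLC7A5 had 0.656, 0.678 and 0.705 reads per SLC3A2 read in co-culture libraries 1, 2 and 3, and 0.533, 0.383 and 0.399 in controls 1, 2 and 3. The ratio was higher in all 3 co-culture libraries than in any control, by 0.65 on the log2 scale, or 1.57-fold. With SLC7A5 higher and SLC3A2 lower without overlap, this separation was fixed by the values of the single genes and is no further result. The exact two-sided permutation p was therefore 0.10, the smallest value that 3 against 3 libraries allow, and 0.20 adjusted over the 6 ratios compared. SLC7A6 and SLC7A11 over SLC3A2 also did not overlap, with log2 differences of 0.28 and 0.43 (exact permutation p = 0.10 for both). These 3 ratios share SLC3A2 and are not independent of each other. By itself SLC7A6 had a log2 fold change of -0.0032 and SLC7A11 of 0.15, beside -0.28 for SLC3A2. The SLC7A6 and SLC7A11 ratios therefore mostly repeat the SLC3A2 difference, which was not called. Leaving out any 1 library left the SLC7A5 to SLC3A2 difference between 0.56 and 0.80 on the log2 scale.

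The remaining 3 ratios overlapped between the groups. SLC1A4 over SLC1A5 differed by 0.07, SLC38A1 over SLC38A2 by 0.06 and SLC7A5 over SLC43A1 by 0.18 on the log2 scale (exact permutation p = 0.40, 0.40 and 0.30). SLC38A1 and SLC38A2, which lie near each other on chromosome 12, kept a ratio of 0.620 to 0.626 reads in the co-culture libraries and of 0.559 to 0.627 in the controls.

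**Figure D3:**
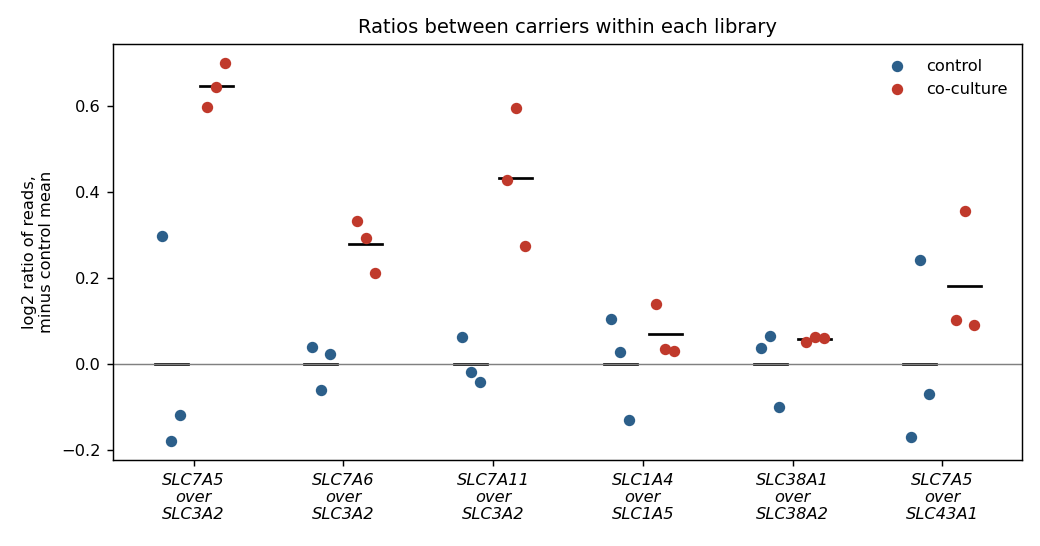
Log2 ratio of reads of 2 carriers in each library (vertical axis, minus the mean of the controls); points are libraries, blue for control and red for co-culture, and bars are group means. The 3 ratios over SLC3A2, which share that gene's own difference, separate the groups by 0.65, 0.28 and 0.43, and the other 3 overlap.

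The arginine and lysine carrier SLC7A1 had 125.2, 130.2 and 128.9 CPM in co-culture and 111.04, 103.9 and 114.7 CPM in controls 1, 2 and 3. All co-culture libraries lay above all controls, with means of 128.1 ± 2.59 and 109.9 ± 5.53 CPM (SD, n = 3 each). Its log2 fold change of 0.22 (SE 0.06, 95% interval 0.09 to 0.35) had an edgeR adjusted p of 0.0556, above the threshold, and 5 of 15 other settings called it, with DESeq2 at an adjusted p of 0.0293. Over the 15 settings its adjusted p ran from 0.00693, without control 1, to 0.432, with the strand class as a term, where the log2 fold change was 0.19.

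The exchangers of alanine, serine and related amino acids were higher in every co-culture library without passing the test. SLC1A4 had 44.4, 44.1 and 46.6 CPM in co-culture libraries 1, 2 and 3 and 41.5, 39.1 and 35.9 CPM in the controls, 0.22 higher on the log2 scale (SE 0.07, edgeR adjusted p 0.108). SLC1A5, which also carries glutamine, had 220.5, 236.0 and 250.1 CPM in co-culture and 211.2, 209.9 and 215.4 CPM in the controls, 0.15 higher on the log2 scale (SE 0.06, edgeR adjusted p 0.177). Co-culture library 1 was the nearest to the controls for SLC1A5, and with the strand class as a term, where that library carries the difference, the log2 fold change was 0.06 (edgeR adjusted p 0.834). SLC1A4 passed in 1 of 15 settings, without control 1 (0.27, edgeR adjusted p 0.00973), and its adjusted p in the others ran up to 0.507, with the strand class as a term (0.19).

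SLC38A1 and SLC38A2, the sodium-coupled carriers of alanine and glutamine, overlapped between the groups. SLC38A1 had 309.6, 306.8 and 291.8 CPM in co-culture and 290.8, 311.3 and 313.3 CPM in the controls. SLC38A2 had 499.01, 490.4 and 467.6 CPM in co-culture and 473.6, 496.7 and 560.7 CPM in the controls, where control 3 stood apart from the other libraries. Their 95% intervals on the log2 scale, -0.14 to 0.12 and -0.23 to 0.09, allowed folds no lower than 0.904 and 0.850 and no higher than 1.09 and 1.06. SLC38A2 is a well-known target of ATF4 in amino acid shortage, and no difference of that gene was detectable within those limits. SLC43A1 had 4.70, 3.99 and 5.34 CPM in co-culture and 5.05, 3.18 and 4.22 CPM in the controls, and its interval of -0.25 to 0.61 was the widest of the 10.

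The library behind each extreme differed among the carriers. Control 1 had the lowest value of the controls for 5 carriers and the highest for 3, and control 3 the highest for 7. Co-culture library 1, the 1 co-culture sample in the controls' strand class, lay above all 3 controls for 5 carriers (SLC1A4, SLC1A5, SLC7A1, SLC7A5 and SLC7A11) and below them for 1 (SLC3A2). Over all tested genes, 56.8% had that library outside the control range.

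How many of the 10 carriers passed, and how many of all tested genes, moved with the processing. The reported fit and those with RLE size factors (4.86% of all tested genes called) and limma-voom (4.63%) called 1 carrier, SLC7A5. Total counts (6.05% of all tested genes) and no low-count filter (4.5%) called SLC7A5 and SLC3A2, and unstranded counts (4.46%) called SLC7A5 and SLC7A1. DESeq2 (7.08%) and the 1 CPM filter (5.24%) called SLC7A5, SLC3A2 and SLC7A1. Leaving out control 1 gave 4 carriers, those 3 and SLC1A4, with 20.8% of all tested genes called, and leaving out control 3 gave SLC7A5 and SLC7A1 with 5%. The share of all tested genes at an unadjusted p under 0.05 is given for the reported fit only, at 23.2%. The unadjusted counts that follow therefore have no share from their own fits beside them. No carrier passed in edgeR without co-culture library 1 (0.831% of all tested genes), 2 (0.503%) or 3 (2.18%), without control 2 (0.44%), with the replicate number as a block (1.12%) or with the strand class as a term (0.199%); at an unadjusted p under 0.05 those fits held 5, 4, 4, 4, 4 and 2 carriers.

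**Figure D4:**
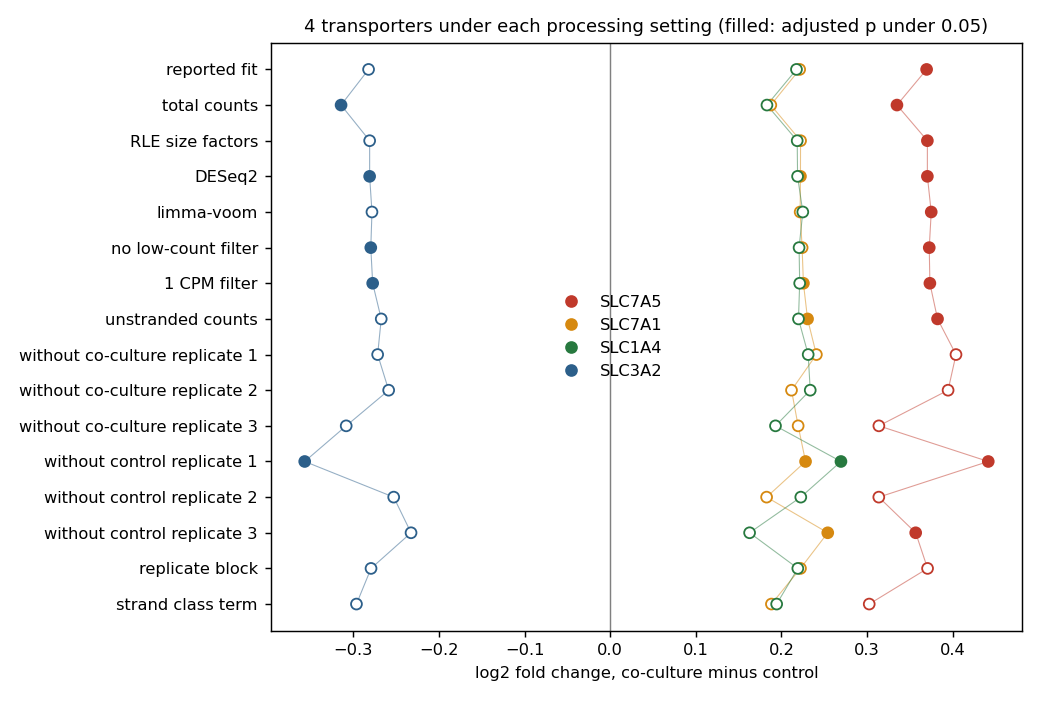
Log2 fold change, co-culture minus control (horizontal axis), of SLC7A5, SLC7A1, SLC1A4 and SLC3A2 in the reported fit and 15 other settings (rows); filled points had an adjusted p under 0.05. The direction of all 4 genes is the same in every setting shown, while the calls come and go, and with the strand class as a term none of the 4 is filled.

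The E-box CACGTG and the letters TGACNNNGC, a short form of the antioxidant response element bound by NRF2, were then searched on both strands, a choice made after the windows and the values had been seen. The E-box, which MYC and related factors bind, was in windows of 3 of the 9 genes (SLC1A5, SLC7A5 and SLC43A1), beside 8.77% of all genes, and in 3 of the 16 windows, beside 7.26% of all windows. The second motif was in windows of 5 of the 9 (SLC1A5, SLC3A2, SLC7A1, SLC7A5 and SLC7A6), beside 16.1% of all genes, and in 5 of the 16 windows, beside 13.3% of all windows. The 250 bases before the start are shown for SLC7A5 and SLC3A2, the partners that differed in opposite directions, with the motifs that lie wholly inside them in capitals:
SLC7A5 (chr16:87869508-87869757, minus strand, E-box): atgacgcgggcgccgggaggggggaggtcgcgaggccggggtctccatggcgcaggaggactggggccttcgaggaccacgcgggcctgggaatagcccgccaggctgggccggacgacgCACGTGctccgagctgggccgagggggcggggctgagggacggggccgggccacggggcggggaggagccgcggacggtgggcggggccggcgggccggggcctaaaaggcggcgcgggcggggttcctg
SLC3A2 (chr11:62881449-62881698, plus strand, antioxidant response element): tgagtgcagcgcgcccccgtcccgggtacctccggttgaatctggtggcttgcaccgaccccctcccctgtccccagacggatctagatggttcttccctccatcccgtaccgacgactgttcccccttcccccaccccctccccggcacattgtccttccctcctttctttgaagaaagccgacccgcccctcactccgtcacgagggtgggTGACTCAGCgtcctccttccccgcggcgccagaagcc
The antioxidant motif of SLC7A5 runs across the start and is therefore not printed. No binding of any factor was measured in these samples.

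Beyond the 10 carriers, 36 other amino acid carriers were listed, most but not all of them of the cell surface. Of these, 18 passed the filter on low counts, and the remaining 18 had at most 20 reads in any library. Of the 18, 2 were higher and 1 lower past the threshold, the median log2 fold change was -0.05, and 4.83% of all tested genes passed. SLC6A15, a sodium-coupled carrier of branched-chain amino acids and proline, had 98.3, 87.0 and 92.4 CPM in co-culture libraries 1, 2 and 3 and 63.5, 65.1 and 63.8 CPM in the controls. The groups stood well apart, the log2 fold change was 0.53 (SE 0.06, edgeR adjusted p 0.00205), and the call held in all 15 other settings, with 0.62 (edgeR adjusted p 0.0356) when the strand class was a term. SLC43A2, which like SLC43A1 lets large neutral amino acids pass without sodium, had 14.6, 15.2 and 16.4 CPM in co-culture and 10.5, 9.44 and 8.82 CPM in the controls. Its log2 fold change was 0.69 (SE 0.11, edgeR adjusted p 0.00719), it passed in 12 of 15 settings, and it missed the threshold without co-culture library 2 (adjusted p 0.0622), without control 2 (0.0609) and with the strand class as a term (0.207). SLC1A3, a glutamate carrier, fell from 30.8 ± 1.56 to 24.5 ± 0.566 CPM (SD, n = 3 each), or by 0.33 on the log2 scale (SE 0.07, edgeR adjusted p 0.0312), and passed in 9 of 15 settings; with the strand class as a term it did not (-0.30, adjusted p 0.340). Whether SLC6A15 or SLC43A2 differed more than the 10 carriers was not tested.

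Carriers inside the cell gave 2 calls among 15 tested of 21 listed genes, 1 in each direction, beside 4.83% of all tested genes. SFXN3, a sideroflexin of the mitochondrial membrane, rose from 27.1 ± 6.96 to 42.0 ± 1.13 CPM (SD, n = 3 each; log2 fold change 0.64, SE 0.15, edgeR adjusted p 0.0469). SLC25A38, the mitochondrial glycine carrier, fell from 34.8 ± 1.89 to 28.2 ± 0.713 CPM, with a difference of -0.30 on the log2 scale (SE 0.07, edgeR adjusted p 0.0400). SFXN1, the mitochondrial serine carrier and the most abundant of the tested genes in this list by CPM, had a log2 fold change of 0.04 (SE 0.06). The calls of SFXN3 and SLC25A38 rested on narrow margins, with 6 and 8 of 15 other settings past the threshold. With the strand class as a term neither passed (0.67 with an adjusted p of 0.287, and -0.26 with 0.384), and the list's median log2 fold change was 0.0079.

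Genes of the response to amino acid shortage, EIF2AK4 and GCN1 among them, gave 2 calls among 27 tested. Both were lower, beside 2.17% of all tested genes called lower, and the list's median log2 fold change was -0.02. DDIT3, a transcription factor induced downstream of ATF4, fell from 19.7 ± 1.41 to 9.99 ± 0.843 CPM, with a difference of -0.98 on the log2 scale (SE 0.10, edgeR adjusted p 0.00105), and passed in all 15 other settings, with -1.11 (edgeR adjusted p 0.0356) when the strand class was a term. ATF5, a relative of ATF4 under the same translational control, had 19.96, 21.7 and 22.4 CPM in co-culture and 29.2, 35.3 and 33.6 CPM in the controls. The groups did not overlap, and the log2 difference, -0.61 with an SE of 0.09 (edgeR adjusted p 0.00537), passed in 12 of 15 settings but not with the strand class as a term (-0.71, adjusted p 0.110). ATF4 itself overlapped between the groups, with 341.5 to 399.4 CPM in co-culture and 334.9 to 373.7 CPM in the controls (log2 fold change 0.08, SE 0.07). SLC7A5, higher, and DDIT3 and ATF5, lower, were called in opposite directions in the same libraries. The shortage list itself was mixed: without overlap between the groups, 5 of its genes were higher and 6 lower. Over all tested genes, 14.3% were higher without overlap and 15% lower. Whether the carriers and this list share a cause was not tested.

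Genes of amino acid sensing at the lysosome, which tell the kinase mTOR of the supply that carriers provide, gave 1 call among 28 tested of 30 listed, beside 4.83% of all tested genes. MLST8, a subunit of the mTOR complexes, fell from 70.8 ± 3.98 to 56.3 ± 4.81 CPM, with a difference of -0.33 on the log2 scale (SE 0.08, edgeR adjusted p 0.0384), and passed in 7 of 15 settings but not with the strand class as a term (-0.47, adjusted p 0.162). MTOR had a log2 fold change of 0.04 (SE 0.07) and SESN3, an inhibitor of that pathway, of -0.11 (SE 0.06, edgeR adjusted p 0.252). The list's median was -0.10, with 18 genes below 0 and 10 above. Over all tested genes the median was -0.0022, and 49.6% were above 0. Among 14 tested enzymes of alanine, glutamine and related amino acids, edgeR called 0, beside 4.83% of all tested genes. An unadjusted p under 0.05 was reached by 0 of them and by 23.2% of all tested genes. DESeq2 and limma-voom also called 0, beside 7.08% and 4.63% of all tested genes. In that list GLUL, which makes glutamine, had a log2 fold change of -0.11 (SE 0.06), GOT2, a mitochondrial aminotransferase, of -0.04 (SE 0.06) and AARS1, which loads alanine onto its tRNA, of 0.06 (SE 0.07). Without control 1, edgeR called 2 of these 14 genes, beside 20.8% of all tested genes.

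**Figure D5:**
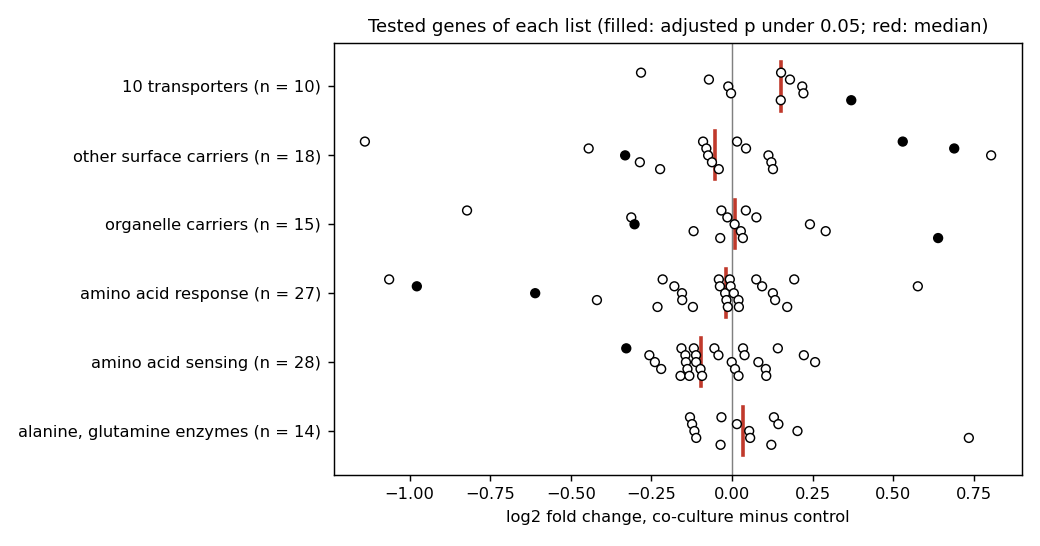
Log2 fold change, co-culture minus control (horizontal axis), of every tested gene in the 10 carriers and 5 related lists (rows, with the number tested); filled points had an adjusted p under 0.05 and red bars are medians. The 10 carriers have a median of 0.15, and the medians of the other lists lie between -0.10 and 0.03 with 8 filled points in all.

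Across the 5 related lists, 8 of 102 tested genes passed (7.84%, beside 4.83% of all tested genes), 3 higher and 5 lower. Other genes moved with the groups as well: VIM, one of the HEK293 markers, had a log2 fold change of 0.40 (edgeR adjusted p 0.00793) and the fibroblast marker LUM of -0.67 (edgeR adjusted p 0.0293), while KRT8, KRT18, PAX2 and LHX1 did not pass. Their part in the results on the carriers was not tested.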

How the data were processed

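RNA from 3 co-culture and 3 control samples was sequenced after TriPure extraction and a stranded mRNA kit from Illumina, per the labels' protocols. FastQC, STAR 2.53a and the build hg18 are named in the submitters' processing notes; the annotation is not given in the sources used here. The deposited files hold raw read counts per gene (unstranded, forward strand, reverse strand), with no normalisation by the authors visible in the values, being whole and summing to totals that differ between libraries. The reverse-strand counts were used, and the 4 summary lines (unmapped, 1.22% to 1.67% of reads; multimapping, 6.48% to 8.42%; no gene, 14.8% to 17.7%; ambiguous, 0.835% to 1.01%) stayed out of library sizes and tests. A read was worth 0.0276 to 0.0524 CPM by raw totals.

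Groups and replicate numbers came from the sample titles. Pairs of libraries within a group differed by a chi-square of 4.73 to 18.5 per degree of freedom, so none was a repeat deposit. The fit used edgeR 4.0.16 under R 4.3.3, group being the sole term, filterByExpr at a minimum count of 10 (14582 of 23686 genes tested), TMM scaling and robust quasi-likelihood F tests, adjusted by Benjamini-Hochberg over all tested genes at 0.05. Each standard error is |log2 fold change|/√F, and 95% intervals use the test's degrees of freedom. CPM are TMM-scaled. The scripts were tested on simulated counts. The members, lists, tests and alternatives were chosen with earlier results of these data known. Besides the members, the genes named were, in each list, those past the threshold (at most 6) and otherwise the most abundant up to 3.

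Symbols follow the files; SLC66A1, GCN1, CASTOR1 and AARS1 were found under 1 older symbol, and CASTOR2 and BMT2 were not matched. Exon lengths are from coding transcripts of GENCODE 29. Alternatives were total counts, RLE size factors, DESeq2 1.42.0, limma-voom (limma 3.58.1), no low-count filter, a filter of 1 CPM, unstranded counts, leaving out each library, a replicate block and the strand class (under 0.5% of reads on the forward strand) as a term.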

Additional observations from a re-analysis of the deposited data

How the results depend on the processing

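SLC7A5, SLC3A2, SLC7A1, SLC1A4, SLC1A5, SLC7A11 and SLC43A1 kept their direction in all 15 other settings. The number of the 10 carriers past the threshold was 1 in the reported fit, 2 with total counts, without a low-count filter and with unstranded counts, and 3 with DESeq2 and with the 1 CPM filter. It was 0 in edgeR with the replicate block (4 at an unadjusted p under 0.05) and with the strand class as a term (2 at an unadjusted p under 0.05), and 0 to 4 when 1 library was left out: 4 without control 1, 2 without control 3 and 0 without control 2 or any co-culture library (4 or 5 at an unadjusted p under 0.05). Of the 102 genes in the related lists, 8 passed in the reported fit, 5 with the replicate block, 2 with the strand class and 2 to 26 with a library left out, 26 without control 1. Over all genes, 704 passed, 164 with the replicate block, 29 with the strand class and 65 to 3069 with a library left out. As a share of all tested genes that was 4.83% in the reported fit and 1.12% with the replicate block. It was 20.8% without control 1, 5% without control 3, 0.44% without control 2 and 0.503% to 2.18% without a co-culture library. Total counts gave 6.05%, no low-count filter 4.5%, unstranded counts 4.46%, DESeq2 7.08% and the 1 CPM filter 5.24%. At an unadjusted p under 0.05 the share is given for the reported fit only, at 23.2%. Scaling by total counts moved the higher share of the calls over all genes from 55.1% to 35.1%, and the median gene to -0.04 on the log2 scale. Same-numbered libraries did not deviate together (correlations of -0.04, -0.09 and -0.09). Such a check cannot exclude a pairing that left no shared deviation, so whether the numbers pair the samples is not settled.

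Only genes near 0 turned sign. SLC7A6 was at 0.0017 with the 1 CPM filter, 0.037 with the strand class and -0.062 to 0.059 with a library left out. SLC38A1 was at 0.021 with the strand class and -0.045 to 0.017 with a library left out, and SLC38A2 at -0.12 to 0.0015. With the strand class ATF4 was at -0.051 and MTOR at -0.0059, and MTOR ran from -0.026 to 0.096 with a library left out. The cause of these changes was not tested.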
